A study of Xenopus laevis with 27 samples.

Results

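The comparison described here set the hindlimb stump of adult Xenopus laevis that had carried a progesterone device against the stump of frogs that had carried no device. It takes 6 of the 27 RNA-seq libraries of the series, 3 labelled progesterone treatment and 3 labelled no device, all labelled stump. The other libraries come from stump with a silk device (the sham without hormone), and from blastema and brain under the same 3 treatments. The series concerns a wearable bioreactor that applied progesterone briefly to the limb, and the question of this comparison is which stump genes differed between frogs with that device and frogs without one. The device and the hormone were applied together in the progesterone group, so their parts cannot be told apart here, and only the silk group carried the device alone. The labels give no strain, sex, age, dose, time of sampling or dissection level, and they do not say whether libraries came from separate frogs. The p-values below therefore measure only the spread between these samples, which may be technical. Libraries 1 and 3 of the no-device group were near-identical. They differed at 0.339% of 14147 genes by a chi-square test of estimated reads, where the other pairs of that group differed at 50.2% and 47.1%. Their mean stands as a single sample, which leaves n = 3 with progesterone and n = 2 without a device.

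A limb stump holds skeletal muscle, connective tissue, bone, nerve, vessels and skin, and circulating blood cells are sampled with it. Skeletal muscle runs on calcium-controlled sliding of actin and myosin, fed by glycolysis, creatine kinase and mitochondria. Progesterone is a steroid hormone that acts through the nuclear receptor pgr and through membrane receptors of the paqr family. Immediate early genes such as fos encode transcription factors that cells switch on within minutes of a stimulus, and heat shock genes encode chaperones that keep proteins folded under stress. X. laevis carries most genes as a pair of homeologs, which the gene names mark with .L and .S. No sequence or coordinate is printed, and copies with near-identical sequence, such as the 3 loci named hsp70.L, share reads of 40 nucleotides and are uncertain singly.

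Library depth was uneven. Estimated from the deposited values, it was 496881, 1695002 and 498771 reads in progesterone libraries 1, 2 and 3 and 2022962 to 3465133 reads in the no-device libraries, so a single read on 1 kb of transcript corresponded to 0.289 to 2.01 FPKM across both groups. FPKM counts fragments per kilobase of gene, scaled to the depth of the library. The gene smad4.1.S took 16.3%, 0.981% and 2.07% of the reads of progesterone libraries 1, 2 and 3, against 0.0911% to 0.131% without a device. The tissue label held for muscle in every library: 7 of 7 gene copies of the muscle fibre markers acta1, ckm, tnnc2, mylpf and atp2a1 were detected in all of them. Their summed level was 1811, 14252 and 6717 FPKM with progesterone and 42809 and 26747 FPKM without a device. Values are always given in the order progesterone 1, 2 and 3, then the mean of no-device 1 and 3, then no-device 2. Every no-device sample lay above every progesterone sample, and progesterone sample 2, the deepest of its group, lay nearest to them. In bulk tissue, fewer cells of a type and less RNA per cell cannot be told apart.

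At an unadjusted p under 0.05, most tested genes of the sarcomere, glycolysis and mitochondrial oxidation were lower, and most immediate early and red blood cell genes were higher, in the stump with the progesterone device than in the stump without one. Inducible heat shock genes such as hsp70.L were higher as well, in a chaperone list that held 12 higher and 7 lower of 67 tested members. The 7 are near the share of lower genes among all tested genes. Differences are given as relative log2 differences: log2(FPKM + 1) with progesterone minus that without a device, minus the median of all tested genes, which was 0.56 before this centring. Of 42903 genes, 9562 had a mean of at least 5 FPKM over the 3 stump groups and were tested with limma in 1 fit of the 8 stump samples. A gene could pass through the group where it was high, and the member counts and the single genes below include such genes. The means with progesterone and without a device both reached 5 FPKM for 51 of 57 sarcomere and 109 of 110 respiratory chain genes. The same held for 32 of 41 immediate early, 19 of 31 red blood cell and 44 of 67 chaperone genes. It also held for 20 of 31 inflammatory, 6 of 15 interferon-induced and 23 of 38 mitochondrial ribosome genes. No gene passed a Benjamini-Hochberg adjusted p of 0.05 (0% of 9562), and the smallest adjusted p was 0.11. At an unadjusted p under 0.05, limma gave 1564 genes, of which 607 were higher with progesterone (6.35% of those tested) and 957 lower (10.0%). A limma fit limited to the 1948 genes with a mean of at least 20 FPKM gave 96 calls, 75 higher (3.85%) and 21 lower (1.08%). That fit was centred on its own median difference of 0.19. With limma-voom, which weights each value by its estimated reads, 820 genes passed the adjusted threshold, 249 higher (2.60%) and 571 lower (5.97%). The authors' deposited table gave q under 0.05 for 6039 of 39465 genes, 3266 higher and 2773 lower, and 787 of the 820 voom calls were among them. That table comes from the same libraries and covers more genes than the 9562 tested here. The overlap is thus not independent support, and the counts are not alike. The split between higher and lower calls depended on the centring. Centred on the 0.56 of all tested genes, the more abundant genes gave 266 calls, 80 higher and 186 lower, and without centring 149, 126 higher and 23 lower. Without centring voom gave 1025 calls, 863 higher and 162 lower, and limma gave 1548 genes higher and 471 lower at an unadjusted p under 0.05. The same change of centring left 41 of 57 sarcomere, 22 of 46 glycolysis, 24 of 48 citric acid cycle and fat oxidation and 53 of 110 respiratory chain genes lower at an unadjusted p under 0.05. It left 33 of 41 immediate early and 24 of 31 red blood cell genes higher. Other lists gained higher members without the centring: splicing and chromatin went from 0 to 15 of 67 and collagen and matrix from 0 to 6 of 59. Myeloid genes went from 0 to 4 of 36, vessel genes from 2 to 8 of 35 and steroid receptor and steroid-responsive genes from 2 to 7 of 20. Both larger counts depended on single samples too: without no-device 2, or without the no-device mean, voom gave 0 calls, and without progesterone 3 it gave 168. Without progesterone 2 it gave 1546, and the count among the more abundant genes went from 96 to 446 without progesterone 2 and to 0 without any other sample. Across all tested genes the quartiles of the relative difference were -0.73 and 0.66, and the lists of genes below can be read against them. Before centring, 3481 of the 9562 genes had every progesterone sample above every no-device sample, and 1118 had every one below. The genes fos.L, hsp70.L, hsp90aa1.1.L, adamts4.L, ppp1r15a.S, cd4.S, traf3ip3.S and dmtn.L were picked among the former. From the latter came pdlim3.S, phkg1.S, pkm.L, fbp2.L, gpd1.S, ptgfr.S and the copy named pgk1. The separate groups of all these genes were thus set by the choice. For any other gene below, a lack of overlap can be read against the 3481 and 1118 of 9562.

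**Figure D1:**
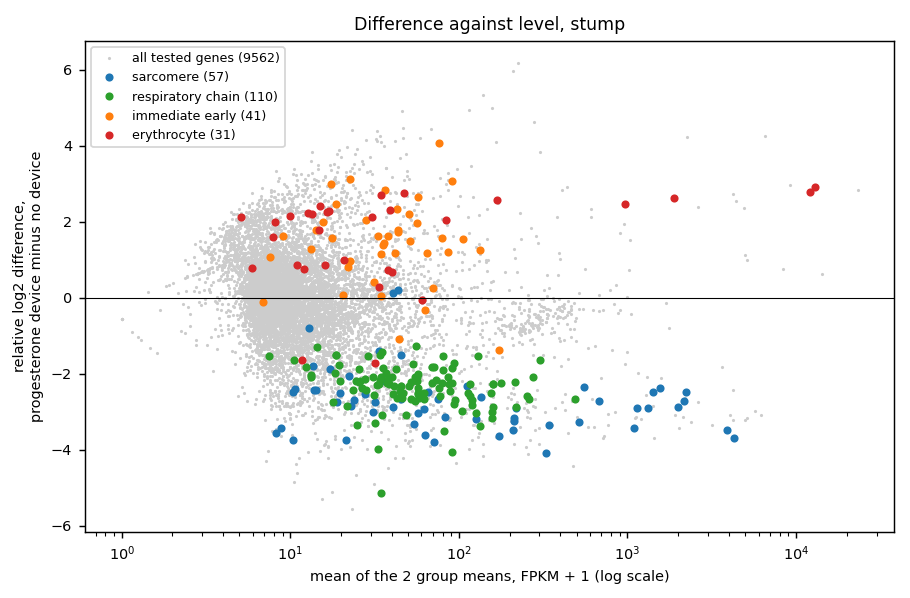
Relative log2 difference, progesterone device minus no device, of each of the 9562 tested genes in the stump (vertical axis) against the mean of both group means as FPKM + 1 on a log scale (horizontal axis). Sarcomere genes (median -2.76) and respiratory chain genes (median -2.28) lie mostly below 0, and immediate early genes (median 1.53) and erythrocyte genes (median 2.11) mostly above it.

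Sarcomere genes, which encode the contractile filaments and the Z disc that anchors them, were the group with the lowest median of the 29 lists with a tested member. Of 82 gene copies found, 57 passed the filter on level. Their median relative difference was -2.76 (-2.38 over the 82), and 46 of the 57 were lower at an unadjusted p under 0.05 and none higher, and voom called 37 lower and none higher. The Z disc protein gene pdlim3.S stood at 18.9, 41.4 and 50.5 FPKM with progesterone and at 383 and 231 FPKM without a device. The groups did not overlap, which was a condition of its choice. The relative log2 difference was -3.65 (SE 0.63), with a voom adjusted p of 0.0153. For klhl41.L, whose product stabilises nebulin on the thin filament, the levels were 4.82, 25.4 and 14.9 FPKM against 129 and 123 FPKM, again without overlap (relative difference -3.79, SE 0.75). Myotilin (myot.S) and the LIM protein gene pdlim7.S differed by -2.75 (SE 0.52) and -3.18 (SE 0.65). Skeletal alpha-actin (acta1.L), the main thin filament protein, stood at 256, 2302 and 976 FPKM against 8812 and 6000.2 FPKM. Its progesterone samples ranged widely, with sample 1 far below sample 2, yet none reached a no-device sample. The tropomyosin gene tpm3.S was the member furthest the other way, at 34.9, 66.9 and 57.9 FPKM against 20.2 and 43.5 FPKM, with overlapping groups and a relative difference of 0.21 (SE 0.58). The count of 46 lower members went to 11 without the mean of no-device 1 and 3 and stayed between 40 and 51 without any other single sample.

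Genes that store muscle calcium and buffer its energy showed lower levels as well. Of 42 copies found, 33 were tested, with a median of -2.42 (-1.92 over the 42), and 23 were lower at an unadjusted p under 0.05 (7 without the mean of no-device 1 and 3) and none higher. Voom called 19 lower. The catalytic subunit of muscle phosphorylase kinase, phkg1.S, which links calcium to glycogen breakdown, stood at 6.69, 13.2 and 8.07 FPKM with progesterone and 87.6 and 43.5 FPKM without a device. All 3 progesterone samples were low and close together (relative difference -3.21, SE 0.51, voom adjusted p 0.0153). The calcium channel subunit genes cacng1.L and cacnb1.S, parts of the voltage sensor of the muscle membrane, differed by -3.02 (SE 0.64) and -2.42 (SE 0.57). Adenylate kinase (ak1.L, 1 of 2 loci of that name) stood at 36.8, 171 and 58.4 FPKM against 552 and 291 FPKM, with sample 2 the highest of its group and still below both no-device samples. Muscle creatine kinase (ckm.S), which regenerates ATP from phosphocreatine, stood at 543, 4169.7 and 2218 FPKM against 12001 and 8281 FPKM, a relative difference of -3.10 (SE 0.83). Brain-type creatine kinase (ckb.S) had 8.26, 6.89 and 44.6 FPKM against 5.05 and 2.14 FPKM, and its relative difference of 1.22 had an SE of 0.84.

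Among regulators of muscle identity the difference was carried by part of the list. Of 27 copies found, 14 were tested, with a median of -1.16 (-0.44 over the 27). At an unadjusted p under 0.05, 7 were lower and none higher (2 without the mean of no-device 1 and 3, and 4 without progesterone 1), and voom called 5 lower. The splicing regulator rbm24.S stood at 3.39, 14.3 and 14.5 FPKM with progesterone and 105 and 79.7 FPKM without a device, and the transcription factor gene mef2c.L at 8.06, 24.9 and 14.2 FPKM against 87.5 and 55.0 FPKM. Neither gene had overlapping groups, and their relative differences were -3.75 (SE 0.73) and -2.76 (SE 0.60). Their homeologs rbm24.L and mef2c.S differed by -2.58 (SE 0.63) and -2.76 (SE 0.70). The myogenic factor gene myod1.S, chosen after its values were seen, had overlapping groups, at 18.7, 31.6 and 24.5 FPKM against 29.9 and 30.3 FPKM. In the list of genes tied to loss of muscle protein, 25 of 33 copies were tested, and the median of -0.35 became 0.21 without the centring. At an unadjusted p under 0.05, 2 of the 25 were lower, a share below the 10.0% of all tested genes. The ubiquitin ligase gene trim63.L (MuRF1), which marks sarcomere proteins for degradation, stood at 1.53, 50.3 and 12.8 FPKM against 63.1 and 147 FPKM, and bnip3.S, which acts in removal of mitochondria, at 14.9, 27.6 and 13.1 FPKM against 39.3 and 48.6 FPKM. Both had higher levels without a device in every sample, with relative differences of -3.56 (SE 1.29) and -1.83 (SE 0.52), and they were the 2 of 25 members lower at an unadjusted p under 0.05 (1 without either no-device sample).

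**Figure D2:**
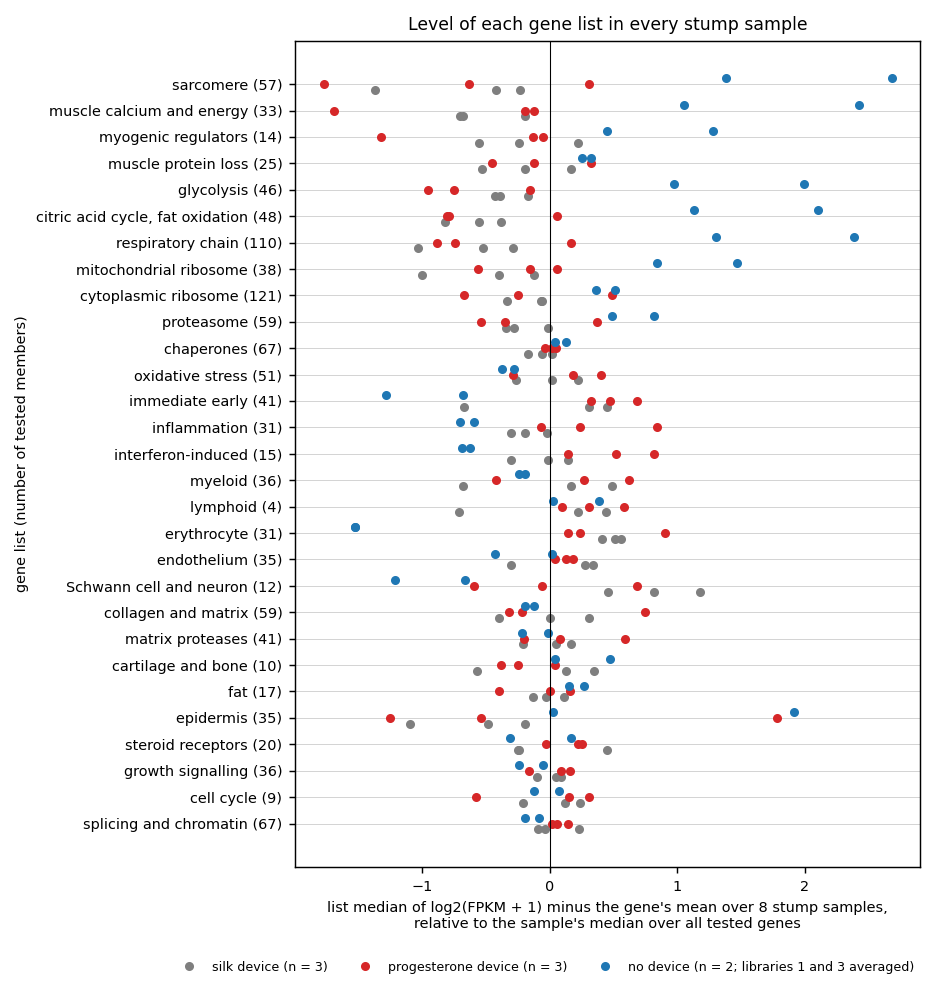
Level of 29 gene lists in each of the 8 stump samples: the list median of log2(FPKM + 1) minus the gene's mean over the 8 samples, relative to the sample's median over all tested genes, with the number of tested members beside each list. In the sarcomere list the no-device samples stand at 2.68 and 1.38 and the progesterone samples at -1.77, 0.31 and -0.63, while in the erythrocyte list both no-device samples stand at -1.52 and the progesterone samples at 0.90, 0.24 and 0.14.

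Enzymes of glycolysis, which breaks glucose down to pyruvate, were lower in the progesterone group. Of 47 copies found, 46 were tested, with a median of -2.21 (-1.95 over the 47), and at an unadjusted p under 0.05, 27 were lower (15 without the mean of no-device 1 and 3) and 1 was higher. Voom called 22 lower. Pyruvate kinase (pkm.L), the last step of the pathway, stood at 114, 189.9 and 133 FPKM with progesterone and 857 and 494 FPKM without a device. The progesterone samples were alike. All lay below the no-device samples, a condition of the choice of pkm.L (relative difference -2.75, SE 0.47, voom adjusted p 0.0161). The muscle fructose-bisphosphatase gene fbp2.L, of the reverse pathway, stood at 6.74, 18.1 and 11.6 FPKM against 112 and 62.4 FPKM. The glycerol-3-phosphate dehydrogenase gene gpd1.S, which passes reducing power from glycolysis to lipid synthesis and mitochondria, stood at 6.1, 7.4 and 6.58 FPKM against 30.8 and 21.3 FPKM. The groups were separate for both genes, which was a condition of their choice, with relative differences of -3.34 (SE 0.55) and -2.35 (SE 0.43). A copy named pgk1 without a homeolog suffix was listed at 0 in all 3 progesterone samples and at 77.2 and 12.3 FPKM without a device. The gene pgk1.L, chosen after its values were seen, stood at 44.2, 85.0 and 55.2 FPKM against 293 and 170 FPKM. The homeologs of gapdh, also chosen after their values were seen, differed: gapdh.S stood at 570.2, 3083 and 1466 FPKM against 9476 and 7458 FPKM, and gapdh.L at 111, 188 and 63.4 FPKM against 84.3 and 134 FPKM. The groups were separate for gapdh.S (relative difference -3.17, SE 0.72) and overlapped for gapdh.L. The 1 higher member was slc2a1.S, the glucose transporter GLUT1, at 35.7, 12.7 and 21.9 FPKM against 5.29 and 5.49 FPKM (relative difference 1.26, SE 0.52, voom adjusted p 0.13). No member was higher at an unadjusted p under 0.05 without progesterone 1, progesterone 3 or either no-device sample, and 2 were without progesterone 2.

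Mitochondrial oxidation showed the same direction across nearly every member tested. For the citric acid cycle and fat oxidation, 48 of 52 copies were tested, with a median of -2.11 (-1.98 over the 52), and 39 were lower at an unadjusted p under 0.05 and none higher. For the respiratory chain, which makes ATP from electrons of these fuels, 110 of 113 copies were tested, with a median of -2.28 (-2.17 over the 113), and 85 were lower and none higher. Voom called 31 and 70 lower, and none higher. Without the mean of no-device 1 and 3, the 39 and 85 lower members became 10 and 26. The mitochondrial transaminase gene got2.L, of the malate-aspartate shuttle, stood at 15.8, 37.0 and 18.9 FPKM with progesterone and 139 and 107 FPKM without a device. Its 3 progesterone samples lay far below both others (relative difference -2.96, SE 0.55, voom adjusted p 0.016). The cytosolic transaminase gene got1.S of the same shuttle differed by -3.49 (SE 0.68), and the succinyl-CoA ligase gene sucla2.L by -2.98 (SE 0.61). The liver-type carnitine palmitoyltransferase gene cpt1a.L, which admits fatty acids to mitochondria, was the 1 member of its list with a positive difference, 0.01 (SE 0.55), with overlapping groups.

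Along the respiratory chain, the cytochrome oxidase subunit gene ndufa4.L (1 of 3 loci of that name) stood at 35.3, 62.2 and 35.5 FPKM with progesterone and 274 and 260.2 FPKM without a device. Complex I was represented by ndufa10.S, at 9.13, 15.4 and 10.0 FPKM against 60.1 and 38.1 FPKM, and the gamma subunit of ATP synthase by atp5c1.L, at 23.9, 30.8 and 18.6 FPKM against 110.1 and 84.0 FPKM. None of these genes had overlapping groups, and their relative differences were -3.18 (SE 0.61), -2.56 (SE 0.49) and -2.52 (SE 0.49). The delta subunit gene atp5d.S differed by -3.50 (SE 0.70). Genes of the mitochondrial ribosome, which translates the mitochondrial genome, were mostly too low to test: 38 of 82 copies passed, with a median of -1.39 (-1.20 over the 82), 11 lower at an unadjusted p under 0.05 (2 without the mean of no-device 1 and 3, 5 without progesterone 3 or no-device 2, and 3 without the centring) and 1 called by voom. The gene mrpl21.L stood at 0, 8.09 and 1.8 FPKM against 19.96 and 25.6 FPKM, and 1 of 2 loci named mrpl4.L was listed at 0 in all 3 progesterone samples and at 23.7 and 14.7 FPKM without a device. Cytoplasmic ribosomal protein genes and proteasome genes differed less. All 121 ribosomal copies found were tested, with a median of -0.61 (-0.05 without the centring), and 1 was lower at an unadjusted p under 0.05, rplp0.S, at 78.3, 120.1 and 49.8 FPKM against 112 and 158 FPKM. Of 62 proteasome copies, 59 were tested, with a median of -0.80, and 3 were lower, psma3.L among them (-1.79, SE 0.63). Voom called none of either list. Without progesterone 2 these counts were 8 of 121 and 13 of 59, and without progesterone 1, progesterone 3 or the mean of no-device 1 and 3 both were 0. Without no-device 2 they were 0 and 1.

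**Figure D3:**
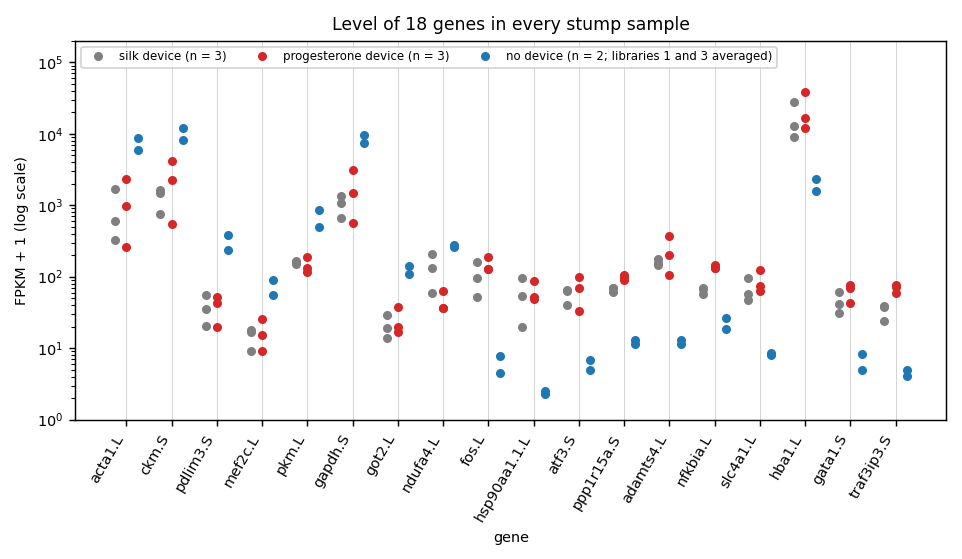
FPKM + 1 on a log scale of 18 genes in each stump sample, 3 with a silk device, 3 with a progesterone device and 2 without a device. The muscle and energy genes at the left, such as pkm.L, stand highest without a device, and the early-response and red blood cell genes at the right, such as fos.L and slc4a1.L, stand lowest without a device; atf3.S and gapdh.S were chosen after their values were seen.

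Immediate early genes were higher with the progesterone device than without one. Of 45 copies found, 41 were tested, with a median of 1.53 (1.54 over the 45), 28 higher at an unadjusted p under 0.05 and 1 lower, and voom called 15 higher and none lower. The AP-1 subunit gene fos.L stood at 125, 127 and 186 FPKM with progesterone and 6.67 and 3.51 FPKM without a device. Every progesterone sample was far above both others, and a lack of overlap was a condition of its choice (relative difference 4.06, SE 0.59, voom adjusted p 0.00946). Its homeolog fos.S stood at 148, 141 and 211 FPKM against 17.96 and 8.36 FPKM, and fosb.S, of the same family, at 23.3, 24.6 and 44.8 FPKM against 2.87 and 0.74 FPKM. The groups were separate for both, with relative differences of 3.07 (SE 0.56) and 3.00 (SE 0.54), and that of fosb.L was 3.13 (SE 0.60). Other members were more moderate: the AP-1 subunit gene junb.S, chosen after its values were seen, stood at 156, 145 and 212 FPKM against 38.4 and 39.1 FPKM, with a relative difference of 1.53 (SE 0.45). The zinc finger gene egr1.S, chosen in the same way, stood at 18.5, 46.1 and 28.7 FPKM against 11.1 and 10.1 FPKM. Its groups were separate, as for 3481 of the 9562 tested genes in that direction, and its relative difference was 0.81 (SE 0.58). The member lower with progesterone was the antiproliferative gene btg2.S, at 76.0, 232 and 93.3 FPKM against 238 and 183 FPKM, with progesterone 2 between the no-device samples, and it was not without progesterone 1, progesterone 3 or the mean of no-device 1 and 3. The 28 higher members became 9 without no-device 2 and 22 to 27 without any other single sample.

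Part of the chaperone genes were higher, while their lower members were about as frequent as among all tested genes. Of 76 copies found, 67 were tested, and their median of -0.12 became 0.44 without the centring. At an unadjusted p under 0.05, 12 were higher and 7 lower, where 6.35% of all tested genes were higher and 10.0% lower. Voom called 10 higher and 4 lower, against 2.60% and 5.97% of all tested genes. Both lower counts are near those shares. The lower count became 2 without the mean of no-device 1 and 3 and 3 without progesterone 1. The inducible chaperone gene hsp70.L was read at 3 loci of that name, which stood at 451, 592 and 278 FPKM, 406, 672 and 170.3 FPKM and 249.7, 422 and 145 FPKM with progesterone. Without a device the same loci stood at 4.38 and 1.94 FPKM, 4.31 and 1.93 FPKM and 2.99 and 3.45 FPKM. No sample overlapped at any locus, which was a condition of their choice. The relative differences of 6.17 (SE 0.87), 5.96 (SE 0.88) and 5.33 (SE 0.84) may count the same reads more than once. Inducible HSP90 (hsp90aa1.1.L), chosen under the same condition, stood at 51.8, 47.9 and 85.8 FPKM against 1.3 and 1.48 FPKM (relative difference 4.11, SE 0.68, voom adjusted p 0.013). Without a device the means of the hsp70.L loci and of hsp90aa1.1.L were 3.16, 3.12, 3.22 and 1.39 FPKM. These lie below the filter, so the genes passed it where they were higher. Of the members chosen after their values were seen, the HSP40 co-chaperone gene dnajb1.L stood at 41.9, 45.02 and 26.2 FPKM against 2.01 and 4.58 FPKM. The small heat shock gene hsp30d.L stood at 47.5, 18.7 and 8.59 FPKM with progesterone and was listed at 0 in every no-device library. The lower members included small heat shock proteins that are abundant in muscle: hspb8.S stood at 4.45, 19.4 and 14.9 FPKM against 105 and 69.3 FPKM, hspb1.S differed by -2.65 (SE 0.71) and hspb7.L by -2.30 (SE 0.67).

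The gene ppp1r15a.S (GADD34), a phosphatase subunit that restores translation after stress, stood at 89.7, 106 and 97.4 FPKM with progesterone and 12.0 and 10.4 FPKM without a device. Both groups were tight and far apart, and a lack of overlap was a condition of its choice (relative difference 2.45, SE 0.42, voom adjusted p 0.0153). The stress transcription factor gene atf3.S, a member of the lists of immediate early genes and of chaperones and stress that was chosen after its values were seen, stood at 67.9, 32.3 and 98.8 FPKM against 5.88 and 3.9 FPKM, a relative difference of 2.84 (SE 0.58). Among genes of oxidative stress and glutathione, 51 of 71 copies were tested, with a median of 0.47 (0.09 over the 71), 9 higher and 7 lower at an unadjusted p under 0.05, and 2 higher and 3 lower by voom. Without progesterone 1, 2 were higher and 7 lower. Without progesterone 3 the counts were 7 and 3, without the mean of no-device 1 and 3 they were 3 and 1, and without no-device 2 they were 4 and 4. The ferritin heavy chain gene fth1.S, which stores iron, stood at 5164, 5412 and 3327 FPKM against 407 and 857 FPKM, and its homeolog fth1.L at 1810.1, 390.2 and 1033 FPKM against 68.0 and 213 FPKM. The groups were separate for both copies, as for 3481 of the 9562 tested genes in that direction, with relative differences of 2.38 (SE 0.55) and 2.33 (SE 0.82). Glutathione peroxidase (gpx1.L), which red blood cells also hold, stood at 153, 57.5 and 52.8 FPKM against 7.61 and 17.2 FPKM (relative difference 2.09, SE 0.72), and the transcription factor gene maff.L differed by 1.85 (SE 0.50). The retinaldehyde dehydrogenase gene aldh1a1.L was lower, at 1.28, 6.28 and 3.84 FPKM against 20.7 and 19.3 FPKM.

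Inflammatory mediators were partly too low to test. Of 56 copies found, 31 were tested, with a median of 0.96 (0.49 over the 56), 9 higher at an unadjusted p under 0.05 (3 without no-device 2) and none lower, and voom called 2 higher. The NF-kappaB inhibitor gene nfkbia.L, itself a target of that factor, stood at 131, 133 and 144 FPKM with progesterone and 17.4 and 25.6 FPKM without a device. The progesterone samples were nearly equal and far above the others (relative difference 2.07, SE 0.43, voom adjusted p 0.0206). The prostaglandin synthase gene ptgs2.L (COX-2) stood at 15.1, 17.7 and 30.3 FPKM against 2.25 and 0 FPKM, and the cytokine signalling inhibitor socs3.L at 91.5, 78.3 and 189.5 FPKM against 25.1 and 15.0 FPKM. Both were separate between groups, as were 3481 of the 9562 tested genes in that direction, with relative differences of 2.99 (SE 0.60) and 1.89 (SE 0.54). The gene ptgs2.L was low, and its mean without a device, 1.12 FPKM, lay below the filter. The prostaglandin F receptor gene ptgfr.S went the other way, at 0.7, 1.41 and 3.21 FPKM against 57.2 and 33.3 FPKM, a relative difference of -4.67 (SE 0.69, voom adjusted p 0.013). A lack of overlap was a condition of its choice. Its mean with progesterone, 1.77 FPKM, lay below the filter, so ptgfr.S passed it where it was higher. The chemokine gene cxcl14.L had overlapping groups (-0.67, SE 0.70). Of interferon-induced genes, 15 of 30 copies were tested, with a median of 0.80 (0.72 over the 30), and 4 were higher at an unadjusted p under 0.05 and none lower. The 4 became 1 without no-device 2, and 2 without progesterone 1, progesterone 2 or the mean of no-device 1 and 3. They were irf7.L and irf1.L, transcription factors of the interferon response, and mhc1a.L and tap1.L, which present antigen. Without a device the means of irf7.L and tap1.L were 2.96 and 0.99 FPKM, below the filter, so these genes passed it where they were higher. The gene irf1.L stood at 43.5, 40.8 and 45.2 FPKM against 8.68 and 9.49 FPKM, and mhc1a.L at 576, 502 and 337 FPKM against 79.0 and 127 FPKM. Each lacked overlap, as did 3481 of the 9562 tested genes in that direction.

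White blood cell genes gave few differences after the centring. Of 49 myeloid copies, 36 were tested, with a median of 0.37 (0.45 over the 49), and limma gave 0 at an unadjusted p under 0.05 and voom 0 calls. The gelatinase gene mmp9.S, which neutrophils store, stood at 198, 247 and 213 FPKM with progesterone and 62.1 and 86.4 FPKM without a device. Its groups were separate, as for 3481 of the 9562 tested genes in that direction, and its relative difference was 1.00 (SE 0.54). The pan-leukocyte gene ptprc.L (CD45) differed by 1.05 (SE 0.61). The summed level of 4 copies of myeloid markers was 45.3, 91.8 and 86.1 FPKM against 30.8 and 37.5 FPKM. Of 33 lymphoid copies only 4 passed the filter, and 1 of them, the T cell co-receptor gene cd4.S, was higher at an unadjusted p under 0.05. It stood at 26.6, 27.7 and 19.3 FPKM against 1.29 and 0.72 FPKM, with a relative difference of 3.11 (SE 0.55, voom adjusted p 0.0153). A lack of overlap was a condition of its choice. Its mean without a device, 1.01 FPKM, lay below the filter, so cd4.S passed it where it was higher. The summed level of 4 copies of the T and B cell markers cd3e, cd79a and lck was 4.82, 10.0 and 3.97 FPKM against 0.75 and 4.63 FPKM, near the worth of single reads. The gene traf3ip3.S, which acts in immune cells, had the smallest p of all named genes that were higher, at 71.3, 57.4 and 76.6 FPKM against 3.04 and 3.89 FPKM (relative difference 3.40, SE 0.46, voom adjusted p 0.00946). It was chosen under the same condition, and its mean without a device, 3.465 FPKM, also lay below the filter.

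Red blood cell genes were the list with the highest median of tested members. Over all copies found, immediate early genes had a higher one, 1.54 against 1.47 for red blood cell genes. Of the tested members, 19 of 31 had means of at least 5 FPKM both with progesterone and without a device. In frogs red blood cells keep a nucleus and transcripts. Of 42 copies found, 31 were tested, with a median of 2.11 (1.47 over the 42), 20 higher at an unadjusted p under 0.05 (16 to 20 without any single sample) and none lower, and voom called 18 higher and none lower. The summed level of 8 copies of the defining markers hba1, hbg1, alas2 and slc4a1 was 90678, 36025 and 29089 FPKM with progesterone and 3562 and 5325 FPKM without a device. Alpha-globin (hba1.L) stood at 38782, 16445 and 11890.4 FPKM against 1580 and 2344 FPKM, and the anion exchanger band 3 (slc4a1.L) at 121, 61.5 and 72.3 FPKM against 6.92 and 7.65 FPKM. Neither gene had overlapping groups, as for 3481 of the 9562 tested genes in that direction, and the relative differences were 2.79 (SE 0.68) and 2.76 (SE 0.52). The erythroid transcription factor gene gata1.S stood at 74.9, 41.3 and 67.4 FPKM against 3.88 and 7.23 FPKM, and its homeolog gata1.L at 15.6, 17.2 and 15.9 FPKM against 1.39 and 1.94 FPKM. Progesterone sample 1 had the most globin, while gata1.L was level across the progesterone samples. The membrane skeleton gene add2.S differed by 2.21 (SE 0.48), and dmtn.L, which encodes a red cell actin-bundling protein, stood at 39.7, 45.1 and 52.2 FPKM against 2.67 and 4.69 FPKM. The transferrin receptor gene tfrc.L, which takes up iron, lay the other way, at 14.7, 15.2 and 25.6 FPKM against 54.6 and 31.7 FPKM (relative difference -1.73, SE 0.84). The markers of red cells thus moved with the treatment group together with the lists above, and their part in the other differences was not tested.

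**Figure D4:**
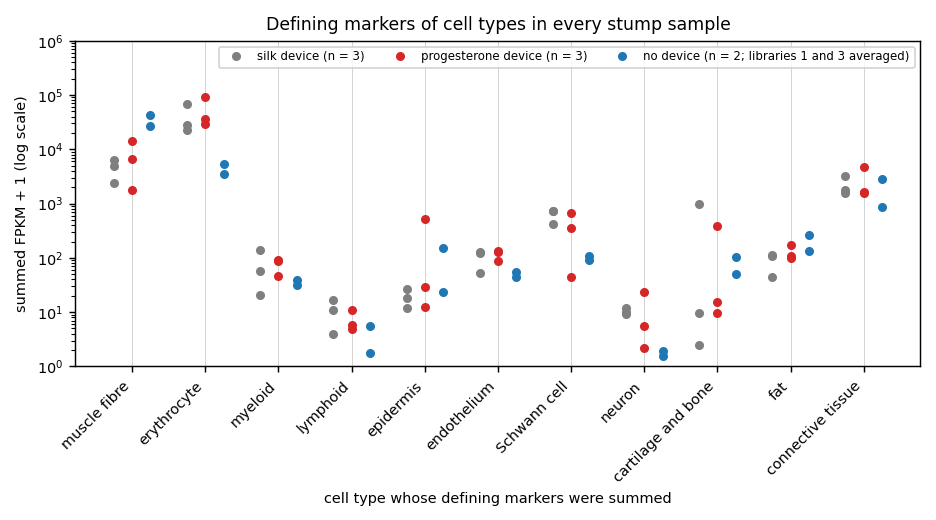
Summed FPKM + 1 on a log scale of the defining markers of 11 cell types in each stump sample, with a silk device, a progesterone device and no device. Muscle fibre markers are highest without a device (42809 and 26747 FPKM) and erythrocyte markers lowest there (3562 and 5325 FPKM), while epidermal markers are high in progesterone 1 (522 FPKM) and no-device 2 (152 FPKM).

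Connective tissue genes differed little between the groups after the centring. Of 88 copies of collagen and matrix genes, 59 were tested, with a median of 0.17 (0.32 over the 88), and at an unadjusted p under 0.05 none was higher and 1 lower. That gene was plod1.L, a collagen lysyl hydroxylase, at 6.18, 6.5 and 5.44 FPKM against 11.7 and 12.53 FPKM (-1.46, SE 0.47), and without the mean of no-device 1 and 3 its unadjusted p was no longer under 0.05. Fibronectin (fn1.S) stood at 37.8, 62.1 and 56.2 FPKM with progesterone and 17.3 and 18.5 FPKM without a device, and the small proteoglycan gene ogn.S at 129, 277 and 139.7 FPKM against 66.3 and 60.6 FPKM. Both sets of samples were separate, as were those of 3481 of the 9562 tested genes in that direction. The relative differences of 0.90 (SE 0.48) and 0.86 (SE 0.50) were less than 2 SE from 0. Matrix proteases and their regulators held larger single differences: of 59 copies 41 were tested, with a median of 0.06 (0.31 over the 59), 5 higher at an unadjusted p under 0.05, none lower, and 4 called by voom. The aggrecan-cleaving protease gene adamts4.L stood at 198, 106 and 366 FPKM against 12.1 and 10.5 FPKM (relative difference 3.45, SE 0.57, voom adjusted p 0.013). The tissue plasminogen activator gene plat.L stood at 31.4, 39.4 and 52.0 FPKM against 7.11 and 3.33 FPKM. For both genes every progesterone sample was above every no-device sample, a condition of the choice of adamts4.L, and plat.L differed by 2.23 (SE 0.51).

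Vessel genes had a median of 0.16 over 35 tested of 52 copies, with 2 higher and 1 lower at an unadjusted p under 0.05 (1 higher without no-device 2, and none lower without progesterone 2, progesterone 3 or either no-device sample). Of all tested genes, 6.35% were higher and 10.0% lower at that threshold, so the vessel list held no more than its share. The apelin receptor gene aplnr.S stood at 25.3, 59.3 and 18.1 FPKM against 3.38 and 5.2 FPKM, a relative difference of 2.02 (SE 0.58), and the tight junction gene cldn5.L at 58.2, 63.4 and 58.4 FPKM against 11.4 and 9.27 FPKM. The ligand gene apln.S was listed at 0 in progesterone 2 and 3 and at 18.4 and 8.84 FPKM without a device. Schwann cell and neuron genes were tested for 12 of 55 copies, with a median of 0.74 (0.46 over the 55), 2 higher at an unadjusted p under 0.05, and 0 voom calls. The myelin gene mbp.S stood at 23.1, 33.0 and 75.8 FPKM against 7.18 and 9.77 FPKM (relative difference 1.52, SE 0.57), and the axon growth gene gap43.L at 5.01, 5.5 and 14.4 FPKM against 1.14 and 1.41 FPKM. Summed over 5 copies, Schwann cell markers were at 44.1, 361 and 660.4 FPKM against 89.4 and 109 FPKM, so progesterone 1 lay below and the others above the no-device samples. Without progesterone 1 the 2 higher members became 5, and without progesterone 3 or either no-device sample they became 0.

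Skin, skeleton and fat genes gave few or no members at an unadjusted p under 0.05. Of 70 epidermal copies, 35 were tested, with a median of -1.09 (-0.66 over the 70). At an unadjusted p under 0.05 limma gave none, and voom called 2 lower. The cell adhesion gene cdh1.L (E-cadherin) stood at 22.0, 0 and 0 FPKM with progesterone and 5.14 and 18.3 FPKM without a device, so progesterone 1 and no-device 2 were both high and the groups overlapped. Without progesterone 1, 18 of the 35 epidermal members were lower at an unadjusted p under 0.05. In the list of cartilage and bone, 10 of 49 copies were tested, with a median of -0.47 that became 0.09 without the centring, and 0 members at an unadjusted p under 0.05. The cartilage matrix gene comp.L stood at 11.7, 6.86 and 2.61 FPKM against 5.83 and 36.8 FPKM, with overlap. Fat genes were tested for 17 of 33 copies, with a median of 0.06. At an unadjusted p under 0.05, where 10.0% of all tested genes were lower, 2 of the 17 were. The adipocyte hormone gene adipoq.S was one of them, at 3.97, 9.3 and 13.9 FPKM against 23.9 and 16.5 FPKM (relative difference -1.75, SE 0.67). The 2 became 1 without progesterone 1 or 2 and 0 without the mean of no-device 1 and 3.

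The progesterone receptor was at or near 0, and the membrane progestin receptors were low. The receptor gene pgr.S stood at 0.4, 0 and 0 FPKM with progesterone and 0.12 and 0.33 FPKM without a device, and pgr.L at 1.34, 1.18 and 0 FPKM against 0.275 and 0.66 FPKM. Of the paqr genes, which encode membrane progestin receptors, paqr6.L had the most, at 3.01, 6.14 and 5.44 FPKM against 1.04 and 0.8 FPKM, and paqr8.L stood at 2.82, 5.67 and 3.72 FPKM against 1.31 and 1.44 FPKM. The groups did not overlap for paqr6.L, paqr6.S or paqr8.L, each higher with progesterone, as for 3481 of the 9562 tested genes before centring. They overlapped for paqr8.S, at 0.65, 2.69 and 4.59 FPKM against 1.34 and 1.78 FPKM, and for paqr5.L, paqr5.S and paqr9.L. A single read on 1 kb was worth 2.01 FPKM in progesterone library 1, so these values rest on few reads. No pgr or paqr copy reached the filter, so none was tested. The membrane progesterone-binding genes pgrmc1.L and pgrmc2.L were tested, at 2.26, 9.27 and 3.39 FPKM against 5.17 and 9.71 FPKM and 5.38, 7.88 and 3.24 FPKM against 2.38 and 4.75 FPKM. Their groups overlapped, and the relative differences were -1.18 (SE 0.60) and -0.06 (SE 0.58), the second of them positive without the centring, without progesterone 3 and without no-device 2. Of 50 copies of steroid receptor and steroid-responsive genes, 20 were tested, with a median of 0.07 (-0.01 over the 50), 2 higher and 1 lower at an unadjusted p under 0.05, and voom gave 0 calls. Of all tested genes, 6.35% were higher and 10.0% lower at that threshold. The higher members were the copies of sgk1, a kinase gene that responds to glucocorticoid and mineralocorticoid hormones. The copy sgk1.L stood at 147, 151 and 158 FPKM against 39.0 and 49.2 FPKM and sgk1.S at 41.5, 94.8 and 66.6 FPKM against 13.0 and 15.5 FPKM, both without overlap, with relative differences of 1.21 (SE 0.42) and 1.54 (SE 0.51). Without no-device 2 neither had an unadjusted p under 0.05. The glucocorticoid target tsc22d3.L (GILZ) stood at 149, 237 and 206 FPKM against 40.0 and 67.0 FPKM, and the glucocorticoid receptor gene nr3c1.L at 49.4, 35.5 and 31.9 FPKM against 9.21 and 14.6 FPKM. Both were separate between groups, as were 3481 of the 9562 tested genes in that direction. Their relative differences were 1.32 (SE 0.59) and 1.08 (SE 0.53), with unadjusted limma p of 0.0525 and 0.0719. The peroxisomal enzyme gene hsd17b4.L, with 2.5, 6.11 and 4.18 FPKM against 6.67 and 8.32 FPKM, was the lower member, and it was not without progesterone 1, progesterone 3 or either no-device sample.

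Genes tied to growth and limb pattern were mostly below the filter. Of 153 copies of growth signalling genes, 36 were tested, with a median of 0.14 (0.10 over the 153), 2 higher and 1 lower at an unadjusted p under 0.05. These counts are below the 6.35% higher and 10.0% lower of all tested genes. The TGF-beta inhibitor gene smad7.S stood at 13.9, 8.36 and 9.93 FPKM with progesterone and 0.99 and 2.7 FPKM without a device (relative difference 1.52, SE 0.49, voom adjusted p 0.033). The ligand gene tgfb1.L was lower, at 4.93, 6.43 and 4.96 FPKM against 11.7 and 10.3 FPKM. The copy named smad4.1.S, the second higher member, stood at 32549, 1976 and 4187 FPKM against 204 and 262 FPKM (relative difference 4.24, SE 1.67). Its highest progesterone sample was far above the other 2. The silk stump libraries varied as widely, with 0.729% to 31.5% of their reads on this copy. What these reads stand for was not tested. Of these 3 members none had an unadjusted p under 0.05 without the mean of no-device 1 and 3. Of 52 hox copies found, none reached the filter, and their summed level was 32.3 to 80.7 FPKM with progesterone and 17.1 to 30.6 FPKM without a device. Among cell cycle genes, 9 of 74 copies were tested, with a median of -0.11 that became 0.45 without the centring. The cyclin D gene ccnd2.S, the 1 member higher at an unadjusted p under 0.05, stood at 35.6, 31.5 and 41.5 FPKM against 9.13 and 12.8 FPKM (1.09, SE 0.46), and none was without any single sample. The replication clamp gene pcna.L (1 of 2 loci), at 9.76, 14.9 and 0 FPKM against 2.08 and 8.85 FPKM, had overlapping groups. Splicing and chromatin genes, tested for 67 of 76 copies, had a median of 0.15 with 0 members at an unadjusted p under 0.05 and 0 voom calls. Without the centring the median was 0.71, and 15 of the 67 were higher at an unadjusted p under 0.05.

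Homeologs gave a second reading of many genes, although reads shared between near-identical copies tie them together. Of 1437 pairs with both copies tested, 1127 (78.4%) had differences of the same sign. Of 187 pairs with at least 1 voom call, 179 (95.7%) had the same sign, and in 81 both copies were called, 12 higher and 69 lower, with 0 pairs called in opposite directions.

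The silk device without hormone shows what the comparison with no device cannot separate. In the same fit, the difference between progesterone and silk device gave 0 genes (0%) at an adjusted p of 0.05 by limma (smallest 0.139) and 0 by voom. At an unadjusted p under 0.05 limma gave 238 genes, 83 higher (0.868%) and 155 lower (1.62%). The 238 are fewer than this threshold gives where no gene differs. Both comparisons share the progesterone samples. Silk libraries 1, 2 and 3 held an estimated 306749, 401701 and 680035 reads, of which smad4.1.S took 21.0%, 31.5% and 0.729%. A single read on 1 kb corresponded to up to 3.26 FPKM there, which limits the comparison for low genes. All silk and progesterone libraries were shallower than every no-device library, and the part of depth in the differences was not tested. The list medians against silk were -0.04 for sarcomere, -0.20 for glycolysis, 0.12 for the citric acid cycle and 0.14 for the respiratory chain. They were 0.38 for immediate early genes, 0.45 for inflammatory mediators, 0.07 for red blood cells and -0.87 for Schwann cells and neurons. The silk samples stood at 165, 148 and 157 FPKM for pkm.L, at 161, 95.6 and 50.6 FPKM for fos.L and at 45.9, 55.9 and 94.9 FPKM for slc4a1.L. Every silk value of these genes lay on the progesterone side of both no-device samples. The differences, progesterone minus silk, were -0.39 (SE 0.42), 0.38 (SE 0.53) and 0.12 (SE 0.47). A p that misses the threshold does not show that both devices act alike. For hsp90aa1.1.L and adamts4.L the silk samples stood at 95.6, 53.1 and 19 FPKM and 174, 146 and 153 FPKM, with differences of 0.11 (SE 0.61) and 0.07 (SE 0.51). Among the genes named above, the unadjusted p against silk was under 0.05 for cd4.S, with silk samples at 4.21, 8.08 and 14.0 FPKM and a difference of 1.24 (SE 0.49). It was also under 0.05 for ndufa4.L, with silk at 57.6, 133 and 204 FPKM and a difference of -1.68 (SE 0.55). The same held for mrpl21.L, with silk at 4.99, 11.5 and 6.64 FPKM and a difference of -1.75 (SE 0.76). For ndufa4.L and mrpl21.L the silk and progesterone samples overlapped. As so few genes reached this threshold against silk, these genes do not stand out from what it gives where no gene differs. The inhibitor nfkbia.L, at 66.2, 67.7 and 56.7 FPKM with silk, lay between the other groups and differed from progesterone by 0.83 (SE 0.38).

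**Figure D5:**
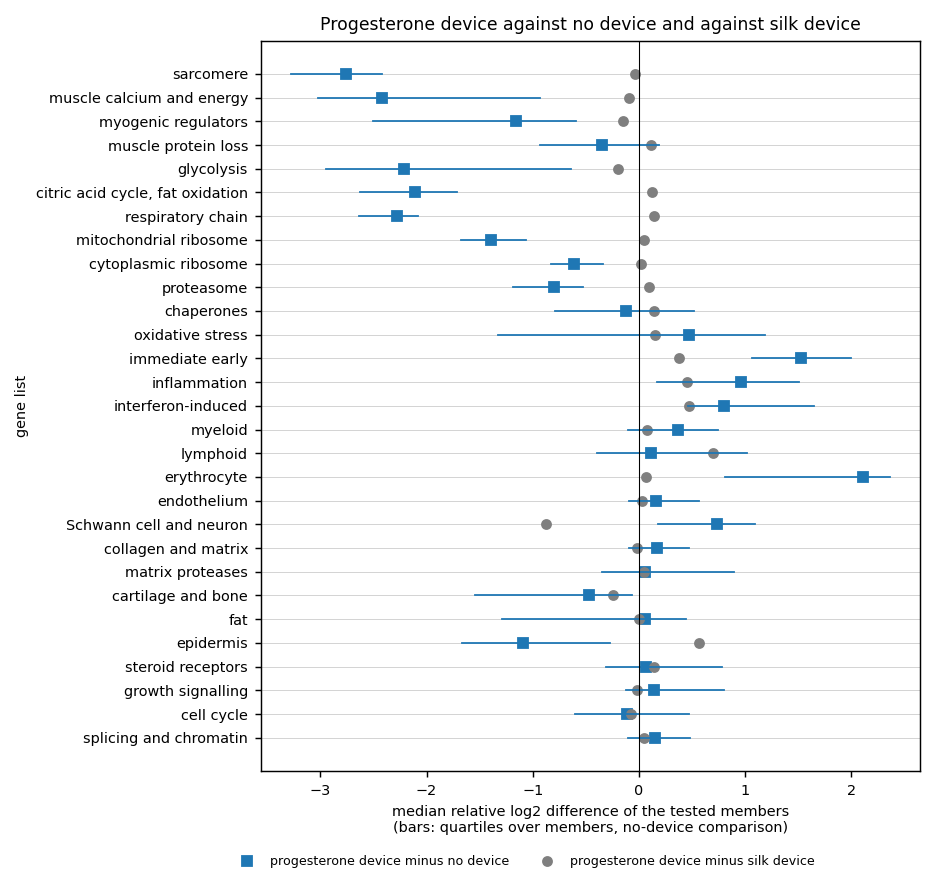
Median relative log2 difference of the tested members of 29 gene lists in the stump, progesterone device minus no device (squares, with bars for the quartiles over members) and progesterone device minus silk device (circles). The sarcomere median is -2.76 against no device and -0.04 against silk, and the erythrocyte median is 2.11 against no device and 0.07 against silk; both comparisons share the progesterone samples.

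The blastema of the same series was set beside the stump to ask whether the difference was that of the other limb tissue. Its libraries were shallow, at an estimated 179631 to 954822 reads with progesterone and 405382 to 673906 reads without a device. Over 11368 genes, the limma test of the stump difference against the blastema difference gave 590 genes at an unadjusted p under 0.05. That is close to the share this threshold gives where no gene differs. At an adjusted p of 0.05 the same test gave 0 genes (0%), and the smallest adjusted p was 0.395. The count was 30 without the mean of blastema progesterone 1 and 3, which were near-identical and had been averaged too. The blastema medians, progesterone minus no device, were -1.70 for sarcomere, -0.71 for the respiratory chain, 0.08 for immediate early genes and 0.45 for red blood cell genes. The medians of the stump minus blastema difference for these lists were -0.81, -1.72, 1.39 and 1.56. Each contrast was centred on its own median over the tested genes, which was 0.81 for the stump minus blastema difference. Without that centring these medians, and the values per gene below, would each be higher by 0.81. This shift is as large as the sarcomere median. For fos.L the blastema difference was 0.51 (SE 0.71), and the stump difference exceeded it by 3.44 (SE 1.01). For slc4a1.L the blastema difference was 0.40 (SE 0.65), and the stump difference exceeded it by 2.25 (SE 0.92). For pdlim3.S the blastema difference of -2.28 (SE 0.63) had the sign of the stump difference. After the centring the stump difference was lower by a further amount, -1.47 (SE 0.89). The adjusted p of these 3 genes for the difference between tissues was 0.946 to 0.955.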

How the data were processed

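Per the labels' protocols, TRIzol extracts were depleted of ribosomal RNA with RiboZero Gold, made into Kapa RNA HyperPrep libraries and read for 40 nucleotides on a HiSeq2000. Per the submitters' processing notes, the tools were Trimmomatic and FastQC, STAR, edgeR and RSEM, without version numbers. Genome build and strand were not given in the sources used here. The library values, whose unit no header states, are taken as FPKM made by the authors, since their product with the estimated gene length has a nearly equal sum in all libraries. The deposited p-values and q-values, log2 fold changes and group mean signal come from the authors' own comparison, per the file headers, and the mean signal served only to estimate gene lengths and reads.

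Values were analysed as log2(FPKM + 1) with limma 3.58.1 in R 4.3.3, treatment as the only term and 8 stump samples in 1 fit, for genes with a mean of at least 5 FPKM over the 3 group means, after subtraction of the median difference. Voom took reads estimated from FPKM. In the stump libraries 59.4% to 63.0% of low values came within 0.1 of whole reads. Reads were thus not recovered and no negative binomial model was fitted; the estimated reads served voom, the depths and the comparison of libraries, and small values rest on few reads. Fold changes on the log2(FPKM + 1) scale understate those of low genes. The fit was also run on simulated data with known differences. Their spread between samples was set and not taken from these libraries, so that run cannot tell how many differences were missed here. Genes were named by rule. As none passed the adjusted threshold, the 10 with the smallest p in each direction were taken among genes whose groups did not overlap and whose higher group had a mean of at least 20 FPKM. The lack of overlap of these genes was thus set by the choice. To these came up to 4 tested members per list with the smallest p in the direction of its median and 1 in the other, the progesterone receptor genes and smad4.1.S. Some genes so named are not reported here. The members and the 30 lists were chosen with earlier results of these data known.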

Additional observations from a re-analysis of the deposited data

How the results depend on the processing

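Against no device, the 0 genes of the limma fit became 32 with a pseudocount of 5, 96 with a mean of at least 20 FPKM, 13 with trend and robust options, 798 with 3 separate no-device libraries and 820 with limma-voom. Without 1 sample the count was 0 to 1. The numbers in the labels were not taken to pair the samples. Deviations of progesterone and no-device samples with the same number correlated at -0.15, -0.03 and 0.11, and those of progesterone and silk at 0.18, 0.16 and -0.04. With 3 libraries per group, and no-device 1 and 3 near-identical, these values cannot settle whether samples were paired. With the replicate number as a block and 3 separate no-device libraries, 521 genes passed. Against silk, 4 genes passed with a pseudocount of 0.1, 2 with separate libraries, 0 to 4 without 1 sample and 0 with the block. Between stump and blastema, 0 to 30 passed without 1 sample. Leaving out samples in the voom fit (0 to 1546 genes) and among genes of at least 20 FPKM (0 to 446) was added after the data had been seen, as were leaving them out of the member counts of each list and the other centrings. Those gave 266 and 149 genes of at least 20 FPKM in place of 96, and 1025 by voom. The largest counts, 1546 and 446, came without progesterone 2.

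Of 1368 values of 152 named genes under 9 alternatives, 1271 kept their direction and side of the threshold, 84 passed it, 64 of them with separate libraries, and 13 changed sign. Without 1 sample the relative difference ranged from -0.02 to 0.46 for tpm3.S, -0.27 to 0.29 for cpt1a.L, -0.02 to 0.58 for rps2.L, -0.26 to 0.91 for blnk.S, -0.04 to 0.99 for fasn.L, -0.02 to 0.87 for cebpa.L, -1.27 to 0.70 for pcna.L and -0.28 to 0.22 for pgrmc2.L. A pseudocount of 5 gave -0.02 for cpt1a.L. Without the centring it was 0.01 for pcna.L, 0.49 for pgrmc2.L, 0.44 for the chaperone median and 0.09 for the cartilage and bone median. The cause was not tested. Of 29 list medians, 20 kept their sign under the same 9 alternatives and under a filter of at least 1 FPKM in at least 3 samples. Among them were the muscle fibre, energy, immediate early and red blood cell lists. Depth limits genes near a few FPKM, since the shallowest progesterone library gave 2.01 FPKM for 1 read in 1 kb.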

Other observations

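The following genes lie outside the lists and were chosen after their values were seen, only among genes whose groups did not overlap. Among genes higher with progesterone, the erythropoietin receptor gene epor.L stood at 47.0, 68.8 and 46.6 FPKM with progesterone and 3.33 and 4.11 FPKM without a device, and the transferrin receptor 2 gene tfr2.L at 144, 85.1 and 72.2 FPKM against 7.38 and 16.3 FPKM. No sample overlapped for either gene, and the relative differences were 2.97 (SE 0.62) and 2.45 (SE 0.61). The gene zfand2a.L (AIRAP), which acts with the proteasome under proteotoxic stress, stood at 106, 70.9 and 94.0 FPKM against 2.65 and 8.98 FPKM. The mitochondrial folate enzyme gene mthfd2.L stood at 711, 802 and 455 FPKM against 76.4 and 128 FPKM. Both were separate between groups, with relative differences of 3.34 (SE 0.61) and 2.11 (SE 0.48). The gene sat1.S, for the enzyme that acetylates polyamines for export, stood at 118, 54.8 and 144 FPKM against 13.1 and 12.6 FPKM, and the antizyme inhibitor gene azin2.S, of the same polyamine pathway, at 590.0, 358 and 397 FPKM against 74.8 and 92.9 FPKM. The silk samples of sat1.S stood at 27.8, 42.6 and 39.4 FPKM, below every progesterone sample, a relative difference of 1.16 (SE 0.48) from silk. For azin2.S that difference was 1.01 (SE 0.42). The unadjusted limma p against silk were 0.0407 for sat1.S and 0.04 for azin2.S, and no gene passed the adjusted threshold against silk. Against no device, azin2.S had a voom adjusted p of 0.0523.

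Among genes lower with progesterone, the iron exporter gene slc40a1.S (ferroportin) stood at 8.58, 13.9 and 9.05 FPKM against 46.4 and 33.5 FPKM, a relative difference of -2.40 (SE 0.46). The glycogen debranching enzyme gene agl.S stood at 6.41, 19.0 and 9.52 FPKM against 85.8 and 36.3 FPKM and its homeolog agl.L at 5.74, 11.8 and 9.05 FPKM against 26.9 and 25.3 FPKM. Glycogen synthase (gys1.S) stood at 11.8, 25.9 and 13.4 FPKM against 82.9 and 54.3 FPKM. None of these overlapped, and gys1.S differed by -2.56 (SE 0.60). The mitochondrial aspartate-glutamate carrier gene slc25a12.L stood at 1.86, 22.6 and 9.33 FPKM against 106 and 67.4 FPKM (-3.83, SE 0.86). The protein kinase A subunit gene prkaca.L was listed at 0, 0.06 and 0 FPKM with progesterone and stood at 40.5 and 17.0 FPKM without a device.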
